A study of Mus musculus with 6 samples.

Results

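The genes described here are 40 genes of T cells, B cells and plasma cells, measured in the aorta of 32-week-old mice that lack apolipoprotein E and in the aorta of wild type mice. Every probe set whose platform annotation gave one of these genes, or an older alias of it, as its only symbol was taken. This gave 72 of the 45101 probe sets, for 37 of the 40 genes. No probe set was matched to the other 3 genes, Lck, Il2rg and Tcf7, in the annotation used here, and 4 probe sets that named Ighm together with another gene were not used. The series holds 3 arrays of C57BL/6J-apoE-/- mice, which were set against 3 arrays of wild type C57BL/6J mice. All animals were 32 weeks old and the labels call the material total aorta. The labels do not give sex, diet or aortic segment, and do not say whether a replicate is 1 animal, a pool or a repeat preparation. The spread behind each p-value is therefore that between these samples, and may be technical.

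T and B lymphocytes recognise antigen through receptors that have no signalling part of their own and rely on partner chains, CD3 and CD247 in T cells and CD79A and CD79B in B cells. Kinases and adaptors then carry the signal inward, costimulatory and inhibitory receptors set its strength, and plasma cells, the last stage of the B lineage, secrete the antibody. In atherosclerosis T cells lie in the plaque and adventitia, and B cells mainly in the adventitia and perivascular fat, where lymphoid clusters can form in old apoE-/- mice. Several genes of this set are not confined to lymphocytes, so they were divided into 29 genes restricted to T, NK or B lineage cells and 11 that other cells share, of which 7 are also made by macrophages, dendritic cells or mast cells (Cd4, Cd8a, Il7r, Il2rg, Lat, Gzmb and Prdm1) and 4 by fibroblasts, adipocytes or other wall cells (Tcf7, Lef1, Gata3 and Ebf1). The division follows textbook knowledge. NK cells and plasmacytoid dendritic cells share some of the restricted genes.

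Il7r and Cd22 were the only members that passed the test, and their promoters are shown with those of Cd3e and Cd79a, receptor genes restricted to T and B cells, of which Cd79a did not pass and Cd3e was too dim to be tested. Each window runs from 250 bases before to 50 bases after the annotated start, 5′ to 3′ on the gene's own strand, from RefSeq on GRCm38.p6. Il7r lies at chr15:9529827-9530126 (minus strand), Cd22 at chr7:30878979-30879278 (minus strand), Cd3e at chr9:45009562-45009861 (minus strand) and Cd79a at chr7:24897247-24897546 (plus strand). Capitals mark matches, on either strand, to AGGAAGT, letters bound by ETS factors, a family that includes the myeloid and B cell factor PU.1, and to TCCC and GGGA with 2 bases between them, letters bound by the early B cell factor EBF1.
Il7r: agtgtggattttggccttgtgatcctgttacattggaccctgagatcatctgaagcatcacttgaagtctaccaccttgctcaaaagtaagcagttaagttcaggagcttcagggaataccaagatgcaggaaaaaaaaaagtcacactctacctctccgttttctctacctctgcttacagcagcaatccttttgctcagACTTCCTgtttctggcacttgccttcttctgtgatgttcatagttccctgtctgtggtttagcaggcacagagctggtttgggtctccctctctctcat
Cd22: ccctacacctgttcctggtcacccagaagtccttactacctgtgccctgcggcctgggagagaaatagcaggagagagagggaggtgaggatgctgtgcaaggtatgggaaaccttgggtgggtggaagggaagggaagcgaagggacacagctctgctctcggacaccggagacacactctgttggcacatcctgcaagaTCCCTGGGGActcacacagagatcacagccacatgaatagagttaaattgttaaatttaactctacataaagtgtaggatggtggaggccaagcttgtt
Cd3e: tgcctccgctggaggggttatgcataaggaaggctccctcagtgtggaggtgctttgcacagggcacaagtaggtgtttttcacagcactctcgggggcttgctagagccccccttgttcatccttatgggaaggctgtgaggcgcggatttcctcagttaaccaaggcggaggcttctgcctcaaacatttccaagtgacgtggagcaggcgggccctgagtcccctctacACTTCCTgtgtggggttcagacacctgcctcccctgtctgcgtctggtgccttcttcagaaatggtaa
Cd79a: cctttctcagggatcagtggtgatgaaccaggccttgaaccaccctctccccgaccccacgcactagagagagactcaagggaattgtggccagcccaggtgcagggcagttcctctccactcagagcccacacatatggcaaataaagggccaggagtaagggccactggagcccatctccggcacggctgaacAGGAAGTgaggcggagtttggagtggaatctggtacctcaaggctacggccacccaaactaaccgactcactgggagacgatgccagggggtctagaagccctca
AGGAAGT was present in the Cd79a window as printed and in the Il7r and Cd3e windows on the other strand, so that the capitals there read its reverse complement. The EBF1 letters were present in the Cd22 window. Of all 32851 promoter windows of this length, 9.35% held AGGAAGT and 0.904% held the EBF1 letters. Of 37 windows of 28 member genes, 11 held AGGAAGT and 2 held the EBF1 letters, whereas the octamer ATTTGCAT, the letters bound by OCT factors that POU2AF1 assists, was in 0 of the 37 and in 1.74% of all windows. The letters were chosen after the windows had been read, the windows of 1 gene can overlap, and a match is a description of the sequence and not a binding site.

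The arrays gave 1 intensity per probe set, already scaled by the authors to a common level, with array medians from 178 to 195.5 units. Correlations between arrays over all probe sets were r = 0.950 to 0.968 across genotypes (9 pairs) and r = 0.966 to 0.972 within a genotype (6 pairs). Apoe, the disrupted gene, read 239.5, 56.3 and 462.1 units in apoE-/- aorta, against 5686, 5625 and 4309 units in wild type aorta, which matched each label. Markers of smooth muscle, the main cell of the aortic wall, were bright throughout, with a summed intensity of 48435 to 60173 units in apoE-/- and 54306 to 63306 units in wild type (6 of 6 above the filter). All 15 macrophage markers were above the filter, and their sum was 51102 to 74368 units in apoE-/- and 20293 to 21733 units in wild type. Wild type replicate 3 stood apart in skeletal muscle markers, with a sum of 19721 units against 327 to 768 on the other arrays. The tests below were fitted with limma to log2(intensity + 16), a scale that understates changes of dim probe sets, and p-values were adjusted by Benjamini-Hochberg over all 27022 probe sets tested.

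Most probe sets of these genes were dim. Of the 72 probe sets, 38 (52.8%) had a mean over the 6 arrays in the lower 40% of all probe sets, at or under 124 units, and are called dim below. They were not tested, and the table holds no detection calls, so their values are given without a statement on whether the gene was expressed. The other 34 probe sets, of 22 genes, were tested. The dim share was 71.4% for genes restricted to T cells (15 of 21 probe sets), 57.1% for the cytotoxic genes of T and NK cells (4 of 7), 41.7% for genes restricted to B and plasma cells (10 of 24), 50.0% for genes shared with myeloid cells (6 of 12) and 37.5% for genes shared with other cells (3 of 8). Cd3d, Cd3e, Cd247, Cd2, Cd6, Cd8b1, Ctla4, Foxp3, Cd4, Cd79b, Lat, Gzmb, Tbx21, Il2rb and Gata3 had no probe set above the filter. In 6 of the tested probe sets the mean of 1 genotype alone lay under the filter level. It was the apoE-/- mean in 2, those of Lef1 and of 1 Cd8a probe set. It was the wild type mean in 4, the dimmer Il7r probe set and those of Cd3g, Cd28 and Pou2af1. These 6 were tested only through the genotype with the higher mean.

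Of the 34 tested probe sets, 3 rose in apoE-/- aorta, both probe sets of Il7r and the brighter one of Cd22, and 0 fell. Over all probe sets tested, 2.51% were called higher and 0.281% lower. At an unadjusted p under 0.05 there were 7 member probe sets (20.6%, against 16.3% of all tested), the 3 called ones, 2 of Ighm that went opposite ways, 1 of Zap70 and 1 of Ebf1. The 34 had a median of 0.05 on the log2 scale, against -0.04 for all probe sets tested, and 18 of the 34 were positive (52.9%), against 42.6% of all tested. Without apoE-/- replicate 3 the member median was -0.08, against -0.03 over all. In 4 tested probe sets all apoE-/- arrays lay above all wild type arrays and in 2 they lay below, whereas 10.6% and 12.2% of all tested probe sets did so. Among the dim probe sets 4 were higher without overlap and 3 lower, against 5.23% and 8.63% of all dim ones. Of the 38 dim member probe sets these are 10.5% and 7.89%, and of the 34 tested 11.8% and 5.88%.

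The fitted changes of the lineage-restricted genes (23 tested probe sets) had a median of 0.07 and those of genes shared with myeloid cells (6 tested probe sets) of 0.03. Without apoE-/- replicate 3 these medians were -0.03 and -0.08. The difference between the classes was not tested. Among the 6 myeloid-shared probe sets the 2 of Il7r were at 2.81 and 4.16 and the other 4 were between -0.33 and 0.15.

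**Figure D1:**
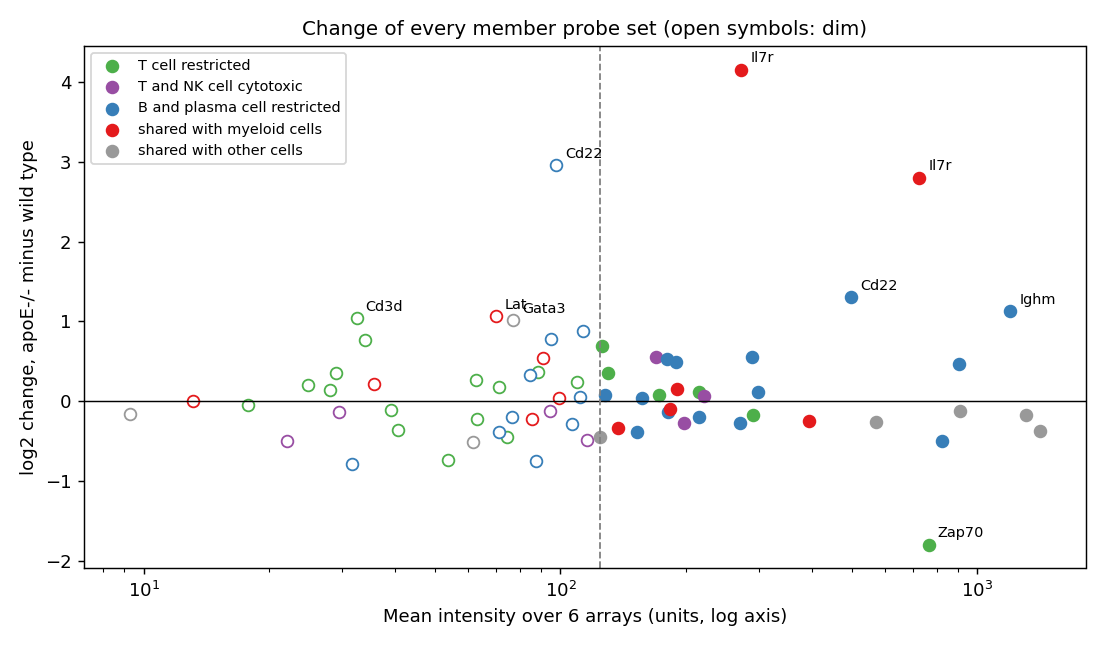
Change of each of the 72 member probe sets (log2, apoE-/- minus wild type, from the fit without a filter) against its mean intensity over 6 arrays on a log axis, coloured by class, with open symbols for dim probe sets and a dashed line at the filter. Both Il7r and both Cd22 probe sets lie above the rest, at 1.30 to 4.16, 1 Zap70 probe set lies lowest at -1.80, and most others lie between -1 and 1.

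Il7r encodes the alpha chain of the interleukin 7 receptor, which T cells, early B cells and innate lymphoid cells need to survive and which some macrophages also make. Its brighter probe set read 1142, 745.6 and 1989.9 units in apoE-/- aorta, against 176.1, 123.6 and 177.1 units in wild type aorta. Its other probe set read 452.8, 292.2 and 845.3 units in apoE-/-, against 21.9, 11.1 and 5.3 units in wild type. All apoE-/- arrays lay above all wild type arrays in both probe sets, and within apoE-/- replicate 3 was highest and replicate 2 lowest. The log2 changes were 2.81 ± 0.31 (SE, limma adjusted p = 0.00243) and 4.16 ± 0.40 (SE, limma adjusted p = 0.00141). The dimmer probe set passed the filter through its apoE-/- values alone. Its wild type mean of 12.8 units is not shown to be above background, and its log2 change was 5.33 with a log offset of 1 and 2.85 with an offset of 64.

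Cd22 encodes a sialic acid binding receptor that restrains B cell receptor signalling, and in mice it is also known from microglia of the aged brain. Its brighter probe set read 566.8, 618.7 and 971.9 units in apoE-/-, against 320.7, 260.4 and 246 units in wild type. The log2 change was 1.30 ± 0.21 (SE, limma adjusted p = 0.0127), and it was 1.23 without wild type replicate 3, where it did not pass (limma adjusted p = 0.0562). The dim probe set read 156, 111 and 293.9 units in apoE-/-, against 9.1, 6.2 and 9.6 units in wild type. In both probe sets the genotypes did not overlap and replicate 3 was the highest of the apoE-/- arrays. In the fit without a filter, where 1.11% of 45037 probe sets were called higher, the dim probe set had a log2 change of 2.96 (limma adjusted p = 0.0105). Its wild type values lie under the offset of 16, where background cannot be told from signal here, and the size of that change depends on the offset. Cd22, Cd79a, Nkg7 and Lat lie on chromosome 7, as does the disrupted Apoe gene. Their promoter windows start at bases 30878979, 24897247, 43436888 and 126369519, so Lat lies far from the others. Distances to Apoe were not measured, and the part of this position in the Cd22 result was not tested.

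**Figure D2:**
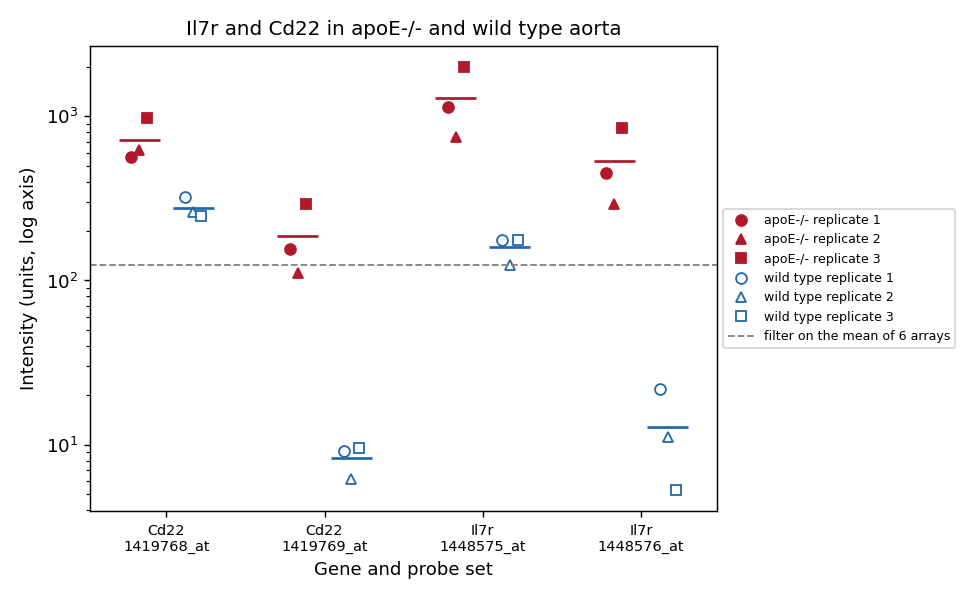
Intensity (log axis) of the 2 Cd22 and the 2 Il7r probe sets on each array, apoE-/- left of wild type in each pair, with a symbol for each replicate number, a bar for the mean of 3 arrays and a dashed line at the filter of 124 units. In all 4 probe sets the apoE-/- arrays lie above the wild type arrays, and the apoE-/- replicate 3 square is the highest.

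The markers of macrophages were also higher in apoE-/- aorta. Of the 15, 12 rose, of which 2 passed the filter through their apoE-/- values alone, and 0 fell (median log2 change 1.73), whereas 3.09% of 13052 named genes, each by its brightest probe set, were called higher and 0.368% lower. Cd68, a lysosomal glycoprotein of macrophages, read 3710, 2234 and 4950 units in apoE-/-, against 416.5, 475.5 and 483.7 units in wild type. Among the apoE-/- arrays replicate 3 was highest and replicate 2 lowest for both Il7r probe sets, for the dim Cd22 probe set and for 10 of the 15 markers, Cd68 included. The share of all tested probe sets with this order was not counted. The sum of the 15 was highest on replicate 1, at 74368, 51102 and 73754 units, and the brighter Cd22 probe set had replicate 1 lowest. Dendritic cell markers summed to 4144, 3412 and 5552 units in apoE-/- and to 1892 to 1963 units in wild type. Of the 7 tested, 2 rose and 0 fell (median log2 change 0.56). The part of macrophage or dendritic cell RNA in the Il7r and Cd22 results was not tested. In whole aorta more cells of a type and more RNA per cell cannot be told apart.

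The signalling chains of the T cell receptor gave no call, and all but Cd3g were dim. Cd3d, the CD3 delta chain, read 25.2, 30.4 and 99.1 units in apoE-/-, against 14.6, 14.2 and 11.1 units in wild type. The genotypes did not overlap, but its probe set was dim and had a log2 change of 1.05 in the fit without a filter (limma adjusted p = 0.311). Cd3e, the epsilon chain, read 54.8, 57.8 and 99 units in apoE-/-, against 65.2, 53.3 and 45.2 units in wild type, with overlap. Cd3g, the gamma chain and the only CD3 gene above the filter, read 131.2, 80.8 and 249.3 units in apoE-/-, against 106.4, 96.7 and 114.9 units in wild type. Its log2 change of 0.36 ± 0.35 (SE, limma adjusted p = 0.664, 95% interval -0.44 to 1.15) became -0.03 without apoE-/- replicate 3. apoE-/- replicate 3 read each of the 3 CD3 genes highest, at 3.26, 1.52 and 1.90 times the highest of the other 5 arrays for Cd3d, Cd3e and Cd3g. All 4 probe sets of Cd247, the zeta chain, were dim and overlapped, with means of 29.3 to 78.0 units in apoE-/- and 24.8 to 67.3 units in wild type.

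Below the receptor, Zap70, the kinase that CD3 and CD247 recruit, had probe sets that disagreed. The bright one read 728.6, 388.8 and 99.8 units in apoE-/-, against 1088, 1203 and 1074 units in wild type. The genotypes did not overlap, yet the log2 change of -1.80 ± 0.54 (SE) did not pass (limma adjusted p = 0.144), and it was -1.05 without apoE-/- replicate 3. Here replicate 3 was the lowest array, whereas it was the highest for the CD3 genes. The other 2 Zap70 probe sets were dim and overlapped, with log2 changes of 0.36 and -0.11 without the filter, and neither repeated the separation of the bright one. Lat, the membrane adaptor that ZAP70 phosphorylates, also made by mast cells and platelets, read 68.5, 44 and 205.8 units in apoE-/-, against 32.7, 30.7 and 38.2 units in wild type. All apoE-/- arrays were higher, with a log2 change of 1.06 without the filter that did not pass (limma adjusted p = 0.389). Mast cell markers had summed intensities of 1933 to 2325 units in apoE-/- and 1908 to 2346 units in wild type, and 0 of the 5 tested were called.

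Costimulatory and surface receptors of T cells gave no call, and several were dim. Cd28, the main costimulatory receptor, had a tested probe set with 178.7, 142.5 and 143.7 units in apoE-/-, against 161.9, 67 and 62.3 units in wild type (log2 change 0.70 ± 0.33, SE, limma adjusted p = 0.345). Wild type replicate 1 lay inside the apoE-/- range. Icos, a related costimulatory receptor, had log2 changes of -0.17 and 0.07 in its 2 tested probe sets, with 95% intervals of -0.54 to 0.21 and -0.41 to 0.55. Cd5, which dampens receptor signalling and is also carried by B-1 cells, averaged 223 ± 14.9 units in apoE-/- and 206 ± 34.0 units in wild type (SD, n = 3 each, 95% interval of the log2 change -0.28 to 0.51). Cd2, Cd6, Cd8b1 and the inhibitory receptor Ctla4 were dim and overlapped, with means of 27.6 to 61.0 units in apoE-/- and 19.2 to 87.6 units in wild type. Foxp3, the transcription factor of regulatory T cells, read 48.4, 19.4 and 42.5 units in apoE-/-, against 57.7, 57.7 and 96.5 units in wild type. Its groups did not overlap, with apoE-/- lower, at a dim level (log2 change -0.73 without the filter, limma adjusted p = 0.40).

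The coreceptors Cd4 and Cd8a are also carried by dendritic cells. Both Cd4 probe sets were dim and not tested, with means of 80.2 and 39.6 units in apoE-/- and 90.4 and 31.7 units in wild type. The 3 tested Cd8a probe sets had log2 changes of -0.25, -0.09 and -0.33, of which none passed (lowest limma adjusted p = 0.48). A dim Cd8a probe set read 99.6, 127.9 and 106 units in apoE-/-, against 70.6, 70.2 and 71.2 units in wild type, without overlap (log2 change 0.55 without the filter, limma adjusted p = 0.371).

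Cytotoxic genes of T and NK cells also gave no call. Prf1, the pore-forming perforin, read 186.8, 190.3 and 154.7 units in apoE-/-, against 211.6, 248.1 and 193.6 units in wild type in its tested probe set. Both Prf1 probe sets were lower in apoE-/- without overlap, but the tested one differed by -0.27 ± 0.18 on the log2 scale (SE, limma adjusted p = 0.491). The dim one read 98.3, 96.5 and 83.2 units in apoE-/-, against 143.3, 98.9 and 175.7 units in wild type. Nkg7, a membrane protein of cytotoxic granules, averaged 208 ± 94.1 units in apoE-/- and 131 ± 33.9 units in wild type (SD, n = 3 each), with apoE-/- replicate 3 at 315 units and the log2 change at 0.23 without it. Gzma, a granule protease, averaged 222 ± 43.5 units in apoE-/- and 218 ± 89.0 units in wild type (SD, n = 3 each, log2 change 0.07, limma adjusted p = 0.928). Gzmb, Il2rb and Tbx21 were dim and overlapped.

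Among B cell genes, Cd79a, a partner chain of the B cell receptor, did not pass. It read 127.7, 124.2 and 227 units in apoE-/-, against 209.3, 107.2 and 148.1 units in wild type. The ranges overlapped and the log2 change was 0.03 ± 0.30 (SE, limma adjusted p = 0.971), with a 95% interval of -0.64 to 0.71. Cd79b, the other partner chain, was dim and not tested, with 65.4, 157.2 and 189.3 units in apoE-/-, against 130.9, 5 and 132.8 units in wild type. Blk, a kinase of B cells, had a log2 change of -0.20 with a 95% interval of -0.57 to 0.17. The transcription factor Pax5, which fixes B cell identity, had log2 changes of 0.49 (limma adjusted p = 0.497) in its tested probe set and 0.78 in its dim one without the filter. Pou2af1, a coactivator of immunoglobulin genes, had a log2 change of 0.07 (limma adjusted p = 0.931) and Mzb1, which assists antibody folding, of 0.12 (limma adjusted p = 0.748).

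The immunoglobulin heavy chain Ighm was represented by 11 probe sets of 1 symbol, of which 6 were tested. The brightest read 939, 1018.3 and 3181.4 units in apoE-/-, against 899.6, 422.5 and 738.5 units in wild type. The genotypes did not overlap, by 39.4 units at the boundary, and the log2 change of 1.13 ± 0.44 (SE) did not pass (limma adjusted p = 0.257). Without apoE-/- replicate 3 it was 0.57. The next brightest read 709, 916.2 and 1521.3 units in apoE-/-, against 1091.7, 479.6 and 709.7 units in wild type, with overlap, while the third read 608.1, 894.8 and 544.2 units in apoE-/-, against 1052.1, 822.2 and 1001.4 units in wild type. These 3 bright probe sets thus had log2 changes of 1.13, 0.46 and -0.51, and 4 of the 11 probe sets were positive without the filter. A dim Ighm probe set read 38.6, 74.9 and 68.6 units in apoE-/-, against 77.9, 82.5 and 85.8 units in wild type, lower without overlap (log2 change -0.39 without the filter, limma adjusted p = 0.616). The IDs of the brightest and the third mark them as sharing sequence with other transcripts, and immunoglobulin probe sets can read several heavy chains, so which chain they measured is uncertain.

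Secreted antibody genes gave no call. Igj (now Jchain), the joining chain of polymeric antibodies, read 169.5, 366.4 and 531.6 units in apoE-/-, against 271.2, 168.5 and 217.3 units in wild type. apoE-/- replicate 1 lay inside the wild type range, and the log2 change of 0.55 ± 0.36 (SE, limma adjusted p = 0.494) became 0.20 without replicate 3. Igha, the heavy chain of IgA, read 213.6, 235.8 and 275.4 units in apoE-/-, against 378.2, 260.5 and 254.8 units in wild type (brightest probe set, log2 change -0.27, limma adjusted p = 0.528). Prdm1, which drives plasma cell formation and is also active in myeloid cells, averaged 200 ± 40.2 units in apoE-/- and 180 ± 51.1 units in wild type (SD, n = 3 each, log2 change 0.15, limma adjusted p = 0.801).

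**Figure D3:**
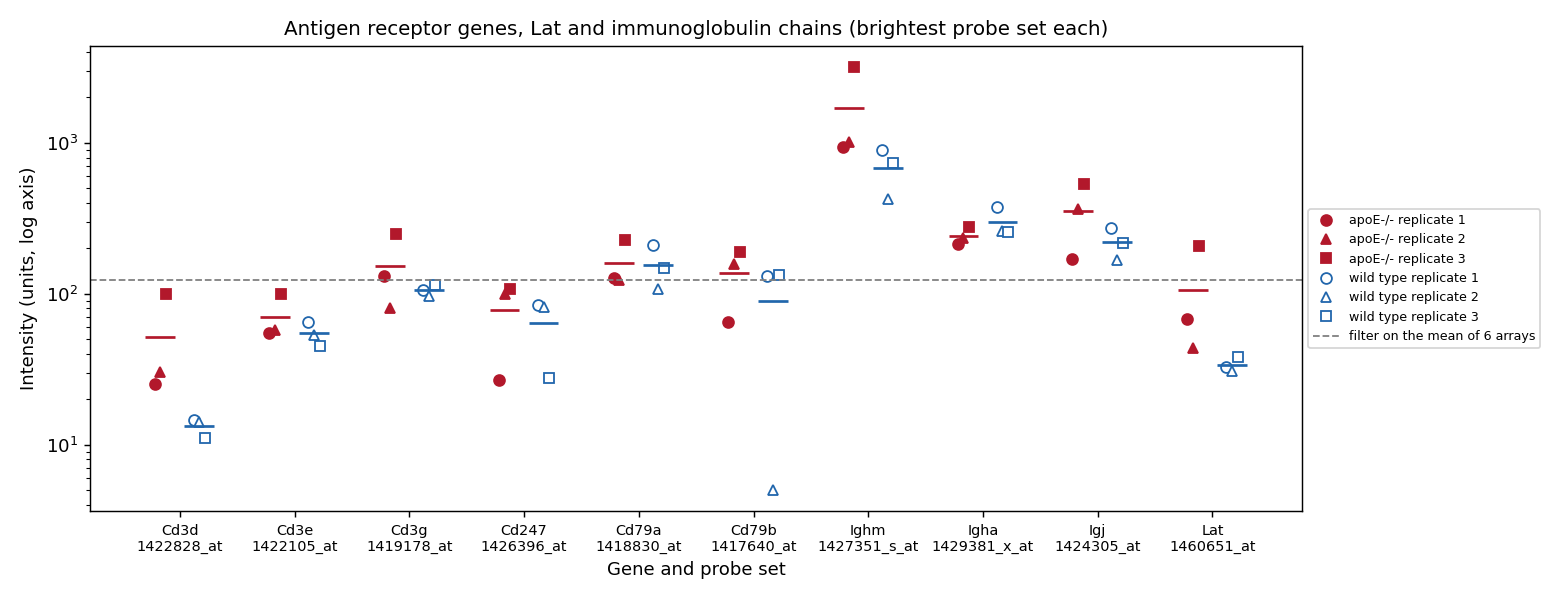
Intensity (log axis) of the brightest probe set of each of 10 receptor, adaptor and immunoglobulin genes on each array, apoE-/- left of wild type, with a bar for the mean of 3 arrays and a dashed line at the filter of 124 units. Cd3d, Cd3e, Cd247 and Lat have both means under the line, and the apoE-/- replicate 3 square is the highest of 6 arrays for every gene except Igha.

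Transcription factors shared with wall cells gave no call, and all 5 tested probe sets of this class had negative changes. All 5 probe sets of Ebf1, which specifies B cells and is also made by adipocytes and fibroblasts, had negative log2 changes, from -0.13 to -0.38 in the 4 tested (lowest limma adjusted p = 0.252). The brightest read 1008.4, 1488.4 and 1204.4 units in apoE-/-, against 1481.2, 1739.9 and 1551.1 units in wild type, and the ranges overlapped by 1 array. Brown adipocyte markers, summed, ran from 11575 to 18511 units in apoE-/- and from 13345 to 32198 units in wild type, and their part in the Ebf1 values was not tested. Lef1, a factor of T cells and of Wnt signalling, had a log2 change of -0.45 (limma adjusted p = 0.424). Gata3, a factor of helper T cells and of endothelium, was dim, with 154.9, 69.5 and 96.2 units in apoE-/-, against 85.9, 31.5 and 24.7 units in wild type.

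The intervals bound what the arrays could miss among the tested lineage-restricted probe sets. Of these 23, 14 had a 95% interval whose upper end was under a log2 change of 1, which is a rise of 2-fold on this scale, and 12 had an interval wholly between -1 and 1. Over all 27022 probe sets tested these counts were 25299 and 24173, so both shares were smaller among the 23. The highest upper end among the 23 was 2.13, for the brightest Ighm probe set. For Cd3g the upper end was 1.15, for Cd28 1.45 and for Igj 1.36, so a rise of 2-fold was within their intervals. Cd3g and Cd28 passed the filter through their apoE-/- values alone. No interval was computed for dim probe sets.

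apoE-/- replicate 3 stood above the other 5 arrays in member genes of several classes. It was the highest array in 30 of the 72 member probe sets (41.7%), against 15.5% of all probe sets. The share was largest, at 75.0%, for genes shared with myeloid cells (9 of 12 probe sets). It was 45.8% for B and plasma cell genes, 38.1% for T cell restricted genes and 28.6% for cytotoxic genes. These shares count narrow leads and repeated probe sets of a gene. In the myeloid-shared class both Cd4 probe sets (1.01 and 1.01 times the highest other array), Prdm1 (1.02) and a Cd8a probe set (1.05) led by little. Of the 8 probe sets of genes shared with other cells, replicate 3 was highest in 0. Replicate 3 exceeded 1.5 times the highest other array in 12 member probe sets (16.7%), against 2.21% of all, and no other array did so in more than 1. These 12 probe sets, of which 6 were dim, belong to Cd3d, Cd3e, Cd3g, Cd8b1, Cd28, Nkg7, Cd22, Ighm, Il7r and Lat. Cd22 and Il7r are there by both probe sets. Cd28 is there by its dim probe set alone, with 182.2 units on replicate 3. In the tested Cd28 probe set replicate 3 was at 0.80 times the highest other array. Ighm is there by its brightest probe set alone, and in the third brightest replicate 3 was at 0.52 times the highest other array. Cd8b1, the beta chain of the T cell coreceptor, read 100 units on that array, against 15.4 and 30.6 units in the rest of the apoE-/- group and 4.5 to 38.5 units in wild type. The summed intensity of the brightest probe sets of 10 B and plasma cell genes was 2909, 3394 and 6264 units in apoE-/- and 3061, 1896 and 2607 units in wild type. Ighm alone gave 939, 1018 and 3181 of these units in apoE-/- and 899.6, 422.5 and 738.5 in wild type. The sum of 13 T cell restricted genes was not highest on apoE-/- replicate 3. It was 1812, 1478 and 1568 units in apoE-/- and 2306, 2156 and 2186 units in wild type. The bright Zap70 probe set gave 728.6, 388.8 and 99.8 of these units in apoE-/- and 1088, 1203 and 1074 in wild type. The sum without Zap70 was not computed. That of 5 cytotoxic genes was 598, 738 and 838 units in apoE-/- and 803, 645 and 648 units in wild type. The count was made after the values were seen and is a description of these arrays.

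**Figure D4:**
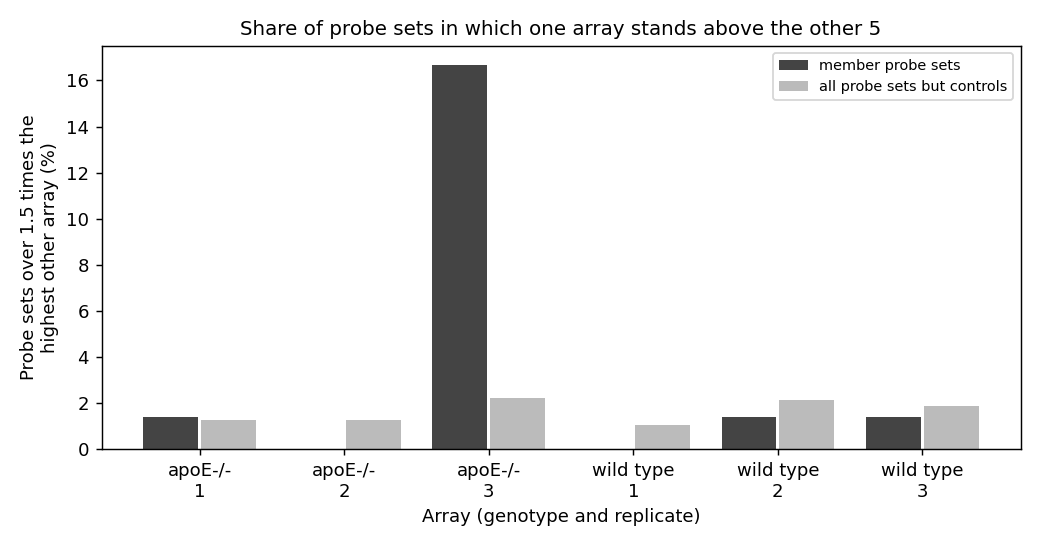
Percentage of the 72 member probe sets (dark bars) and of all probe sets but controls (light bars) in which the named array exceeds 1.5 times the highest of the other 5 arrays. The dark bar of apoE-/- replicate 3 is at 16.7% against a light bar at 2.21%, and all other dark bars are at or under 1.39%.

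The summed markers of lymph node stroma were 577, 503 and 851 units in apoE-/- and 486, 362.5 and 459 units in wild type, over 4 genes of which 3 were dim, and most of each sum was Cxcl13. Cxcl13, the chemokine that draws B cells into follicles and the 1 tested gene, read 471.6, 416.1 and 708.1 units in apoE-/-, against 347.4, 208.2 and 365.3 units in wild type (limma adjusted p = 0.178). Madcam1, an adhesion molecule of lymphoid vessels, was not highest on that array, with 64.2, 64.4 and 81.8 units in apoE-/-, against 106.5, 122.7 and 71 units in wild type, and Glycam1 was at 10.6 to 14.8 units on all arrays. Red blood cell markers were lowest there, with a sum of 696 units against 1094 and 1525 units on the other apoE-/- arrays and 1361 to 2581 units in wild type. Endothelial markers were highest there, at 7915 units against 4506 to 6488 units on the other 5 arrays. The part of these tissues in the member values of that array was not tested.

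Further genes of the same lineages were read from lists outside the 40. Of 43 further T and NK cell genes, 35 had a probe set and 15 were tested, of which 0 passed in limma. At an unadjusted p under 0.05 there were 5 (all tested probe sets, 16.3%), 4 with negative changes and Ccl5, a chemokine of T cells that macrophages also make, with a positive one. Ccl5, singled out after its values were seen, read 285.5, 331.8 and 751.7 units in apoE-/-, against 244.3, 12.3 and 151.6 units in wild type (limma adjusted p = 0.221). The middle of these 15 changes was -0.27 (median, log2), against -0.05 over all named genes, with 4 of 15 positive (26.7%, against 41.2% of all named genes). The smallest p was that of Il2ra, the alpha chain of the interleukin 2 receptor, with 106.5, 81.7 and 78.3 units in apoE-/-, against 193.2, 150.3 and 147.9 units in wild type (log2 change -0.78 ± 0.23, SE, limma adjusted p = 0.136). Its groups did not overlap. Il2ra passed the filter through its wild type values alone, with an apoE-/- mean of 88.8 units. So did Cd40lg, another of the 4 with negative changes, with an apoE-/- mean of 123.6 units. Of 34 further B and plasma cell genes, 24 had a probe set and 16 were tested. Here 2 rose, Cd72 (log2 change 3.08) and Sdc1 (1.08), and 0 fell, with a median of -0.05. Over all named genes tested, 3.09% were called higher and 0.368% lower. Cd72 passed the filter through its apoE-/- values alone. Neither is confined to the lineage, since macrophages also make Cd72, a receptor for semaphorins, and epithelial cells make Sdc1, a heparan sulfate proteoglycan.

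Signalling genes that lymphocytes share with myeloid cells gave most of the 19 calls in the further lists, which leave out the cell type markers. Of 32 listed, 27 were tested, 15 rose and 0 fell, and the median was 1.16 on the log2 scale with 25 of 27 positive. Over all named genes tested, 3.09% were called higher, 0.368% were called lower and 41.2% were positive. The largest rises were those of Ikzf1, a transcription factor of lymphoid and myeloid development (log2 change 2.54 ± 0.37, SE), Laptm5, a lysosomal protein of blood cells (2.34 ± 0.20), Blnk, an adaptor of the B cell receptor that macrophages also make (2.33 ± 0.23), and Coro1a, an actin regulator of leukocytes (2.21 ± 0.35). Their limma adjusted p-values lay between 9.27e-04 and 0.012. Blnk read 1026, 731 and 1522 units in apoE-/-, against 197, 199 and 189.8 units in wild type, without overlap. Ikzf1 passed the filter through its apoE-/- values alone. All 4 had replicate 3 highest and replicate 2 lowest among the apoE-/- arrays, as did 19 of the 27 tested. In the lists above, 3 of 15 tested T and NK cell genes and 5 of 16 tested B and plasma cell genes had this order. The share over all tested probe sets was not counted.

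A further list held the cytokines, receptors, kinases and STAT factors of the common gamma chain family, to which IL7R belongs, with Tslp and Crlf2, whose receptor uses IL7R but not the common gamma chain. Of the 18 genes, 12 were tested, 2 rose and 0 fell, with a median log2 change of 0.06. The shares over all named genes tested were 3.09% higher and 0.368% lower. Il4ra, the interleukin 4 receptor alpha chain, read 564.9, 348.5 and 558 units in apoE-/-, against 162.6, 239.8 and 212.2 units in wild type (log2 change 1.18 ± 0.22, SE, limma adjusted p = 0.0255). Crlf2, which pairs with IL7R to form the receptor for thymic stromal lymphopoietin, read 1707, 1489 and 1929 units in apoE-/-, against 1093, 844 and 993 units in wild type (log2 change 0.80 ± 0.14, SE, limma adjusted p = 0.0175). Neither gene's groups overlapped. Il7, the ligand of IL7R, had 141.7, 128.7 and 146.5 units in apoE-/-, against 77.7, 117.3 and 146.3 units in wild type (limma adjusted p = 0.62), with overlap. Tslp, the ligand of the CRLF2 pair, was dim, with 106.4, 123.7 and 56.9 units in apoE-/-, against 37.4, 13.4 and 50.3 units in wild type, without overlap. Il7 and Tslp were named for their tie to IL7R after their values were seen.

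**Figure D5:**
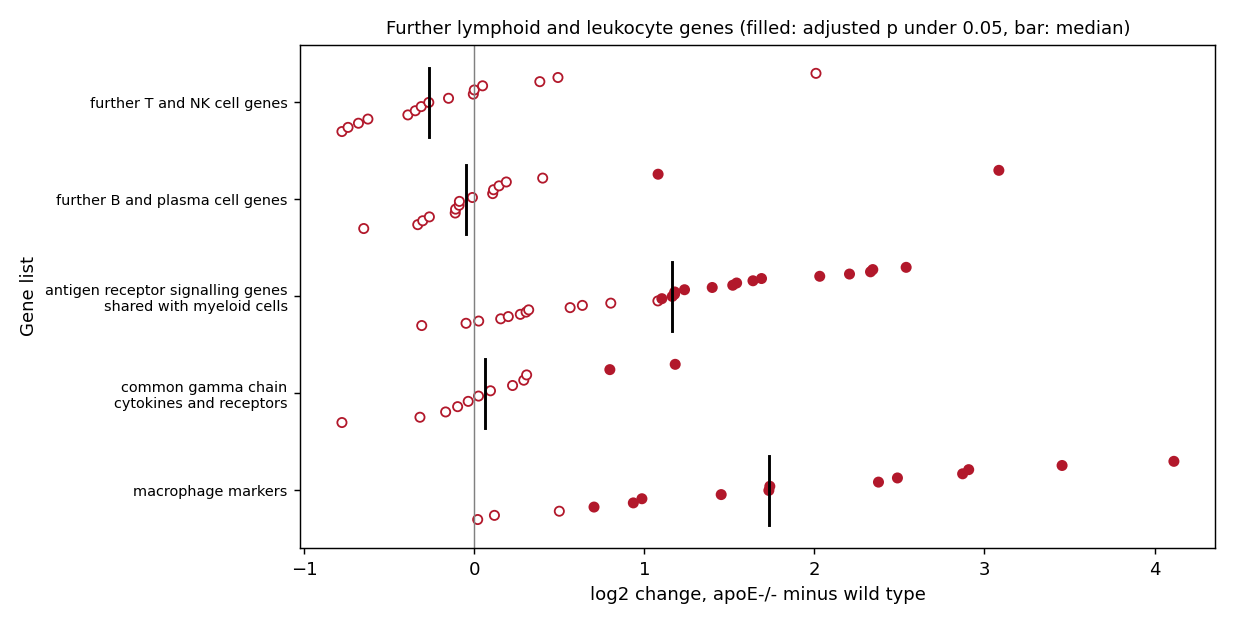
log2 change (apoE-/- minus wild type) of the tested genes of 4 further lists and of the macrophage markers, 1 point per gene, filled where the adjusted p was under 0.05, with a black bar at the median of each list. The T and NK cell list has no filled point and a median of -0.27, the shared signalling list has 15 filled points and a median of 1.16, and the macrophage markers have 12 and a median of 1.73.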

How the data were processed

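Total aorta RNA was measured on 3 apoE-/- and 3 wild type Affymetrix single-colour arrays. The deposited table holds 1 linear intensity per probe set and array; the software that computed it is not given in the sources used here. By the values, the authors had scaled each array to a mean intensity of 500.002 after trimming 2% at each end. Gene names came from the platform annotation, updated through the GRCm38.p6 gene table (34754 of 34958 probe sets with 1 symbol matched; 932 with several were not named).

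The 64 control probe sets and the lower 40% by mean over all arrays (18015) were left out. limma 3.58.1 in R 4.3.3 (lmFit, eBayes with an intensity trend, genotype as the only term) was fitted on log2(intensity + 16) of the remaining 27022 probe sets, with Benjamini-Hochberg adjustment and a threshold of 0.05. Changes given as without the filter come from the same fit on all 45037. With 3 arrays a group, precision is limited by their number.

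The members, their classes and the lists were chosen with earlier results of these data known. All members were described; full values were given for those called, those whose groups did not overlap and the leading receptor genes, with up to 4 called genes of each further list, or that with the smallest p. Exceptions are stated, and Cd68, Cxcl13, Cd8b1, Cd28, Gata3 and Ebf1 were also read per array after their values were seen. Alternatives were other offsets, scalings, filters and variance settings, 1 probe set per gene, a replicate block, a 2-fold minimum and leaving out each array.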

Additional observations from a re-analysis of the deposited data

How the results depend on the processing

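Under 16 refits and a 2-fold minimum, member probe sets called higher numbered 2 to 4 and those called lower 0, with 1 exception. The brighter Il7r probe set passed in 16 of 16, and the brighter Cd22 probe set in 15 of 16, with log2 changes of 1.07 to 1.45; it missed without wild type replicate 3 (1.23, adjusted p = 0.0562). Without a filter 4 were called, with the dim Cd22 probe set added. Leaving out single arrays gave 2 to 3 higher and 0 to 1 lower, the lower one being the third brightest Ighm probe set without apoE-/- replicate 2. Of the further lists, 19 genes were called, and 12 without a filter, where dim probe sets enter both the variance fit and the adjustment. When single arrays were left out, 7 to 21 were called. The count was 7 when the apoE-/- group lost replicate 1, 11 when it lost replicate 3, and 11 when wild type lost replicate 3. Deviations of arrays with the same replicate number had r = -0.11, -0.13 and -0.04, and those of pairs with different numbers r = -0.13 to 0.21. With 3 arrays a group these values cannot decide whether arrays of 1 number shared a batch. With the replicate block, member counts stayed at 3 and 0 and the further lists had 16. No called member probe set changed sign without apoE-/- replicate 3, whereas 5 of 31 uncalled ones and the median of the 34 did. The brightest Ighm probe set and the tested Prf1 and bright Zap70 ones passed under none of these refits, with adjusted p-values of 0.185 to 0.504, 0.394 to 0.768 and 0.0577 to 0.281. Dim signal limits the 38 untested probe sets, and detection calls were not used here.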
